A study of Mus musculus with 4 samples.

Results

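Sirtuins are enzymes that remove acetyl and other acyl groups from lysines and consume NAD+ in each reaction, which ties their activity to the metabolic state of the cell. SIRT1, SIRT6 and SIRT7 act mainly in the nucleus, SIRT2 mainly in the cytosol, and SIRT3, SIRT4 and SIRT5 in mitochondria. In brown fat, the heat-producing fat of mammals, SIRT3 is the main mitochondrial deacetylase and is known to rise in the cold, and SIRT1 is known to promote brown adipocyte genes by deacetylating PPARγ. The family was followed here at the RNA level in brown adipocytes that expressed either an empty vector or Blnc1 (brown fat lncRNA 1), a long noncoding RNA.

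The members were the probe sets whose platform annotation gave 1 gene symbol, and that symbol was one of the 7 mouse sirtuins. There were 6 such probe sets among 23599, and they covered 5 genes, namely Sirt1, Sirt3, Sirt4, Sirt5 (by 2 probe sets) and Sirt7. A further 3 probe sets carried a sirtuin symbol next to that of another gene and were left out by this rule. Sirt2 and Sirt6, for which no probe set met the rule, were not analysed here.

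The samples were 4 arrays of wild-type mouse brown adipocytes, differentiated for 6 days from preadipocytes that expressed the vector (2 arrays) or Blnc1 (2 arrays). The labels name neither the promoter of the vector nor the source of the preadipocytes. They call the replicates biological without saying whether they came from separate transductions, so the p-values below measure only the spread between these arrays. The median log2 value of an array ranged from 5.98 to 6.04. The typical gap between replicate arrays was 0.091 log2 units among vector arrays and 0.10 among Blnc1 arrays (median over probe sets). Of 7 measured brown and general adipocyte markers, the brightest averaged 13.3 and the dimmest, Ucp1, 6.51 over all 4 arrays. Ucp1, Cidea, Cox7a1 and Cox8b rose, 4 of the 7, against 0.86% of all genes. The general adipocyte markers Adipoq, Pparg and Fabp4 did not pass, with log2 fold changes of -0.12, 0.10 and 0.0016. Ucp1, the uncoupling protein that defines brown fat, lay below the array medians in the vector arrays, at 5.01 in both. In the Blnc1 arrays Ucp1 read 7.97 and 8.05. The log2 fold changes of Cidea, Cox7a1 and Cox8b were 3.12, 1.28 and 1.13. The 3 macrophage, 1 endothelial and 2 skeletal muscle markers that were measured averaged at most 4.65, 4.23 and 5.02, and none passed the test.

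Sirt3, the main mitochondrial deacetylase, was the 1 measured sirtuin that passed the test, and it rose in Blnc1 cells. Its deposited values were 8.29 and 8.28 in the vector arrays and 8.92 and 8.94 in the Blnc1 arrays (log2 scale). Both Blnc1 arrays were higher than both vector arrays, and the gap between the groups was far wider than the gaps within them, which were 0.0043 (vector) and 0.016 (Blnc1). The group means were 8.29 ± 0.0030 and 8.93 ± 0.011 (SD, n = 2 each), a log2 fold change of 0.64 ± 0.075 (SE) with a 95% interval from 0.46 to 0.83, or 1.56-fold (1.37-fold to 1.77-fold). The adjusted p was 0.0348 (limma with Benjamini-Hochberg adjustment over all probe sets). This SE, interval and p rest largely on a variance prior shared by all probe sets. Its SD of 0.092 is larger than the SDs of Sirt3 itself. Of all probe sets 0.928% passed this threshold of 0.05, and 0.623% passed as higher in Blnc1 cells, against 1 of the 6 sirtuin probe sets. Among the 94 genes that rose (0.86% of all genes, each counted by its brightest probe set), Sirt3 ranked 74 by fold change, so its rise was one of the smaller ones that passed. Sirt3 did not pass when any 1 of the 4 arrays was left out, although its log2 fold change stayed between 0.64 and 0.65. Such fits leave 1 array in a group, and far fewer probe sets passed in them. In a linear model without variance moderation Sirt3 did not pass either (adjusted p = 0.228), and nor did any other probe set.

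**Figure D1:**
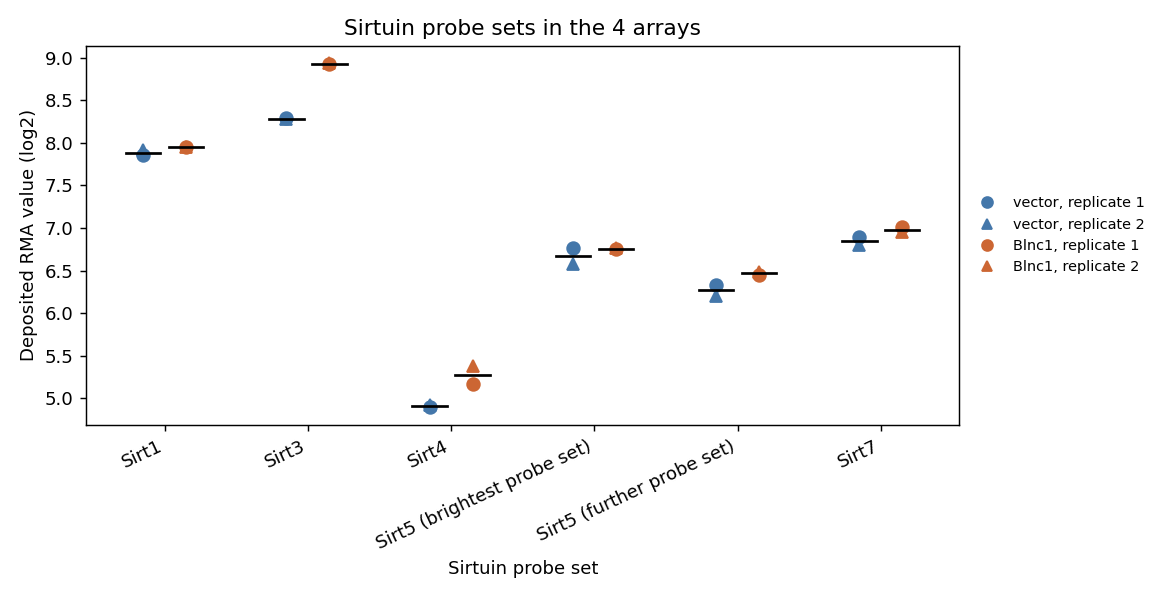
Deposited values (vertical axis, log2 scale) of the 6 sirtuin probe sets in each array; circles are replicate 1, triangles replicate 2, and bars the means of 2 arrays. The Blnc1 arrays of Sirt3 sit at 8.92 and 8.94, above vector arrays at 8.29 and 8.28, while those of the other probe sets lie closer to the vector arrays; heights of different probe sets cannot be compared with each other.

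Other differences between the groups ran alongside the rise of Sirt3. The brown adipocyte markers Ucp1, Cidea, Cox7a1 and Cox8b each rose by more than Sirt3 did. All 6 measured preadipocyte and fibroblast markers had negative log2 fold changes, with a median of -0.38 and none past the test, and averaged over the list they read 6.33 and 6.35 in the vector arrays and 6.00 and 6.04 in the Blnc1 arrays. Spiked-in hybridization controls, 18 in number, all read lower in Blnc1 arrays, by a median difference of -0.27. For Gapdh, whose 3' and 5' ends are read separately to gauge RNA quality, the 3' value exceeded the 5' value by 0.38 and 0.45 in vector arrays and by 0.29 and 0.27 in Blnc1 arrays. The part of these shifts in the Sirt3 value was not tested. In RNA from whole cultures, a change in the share of differentiated cells and a change in RNA per cell cannot be told apart.

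Sirt4, a mitochondrial sirtuin with weak deacetylase activity that is known to act on glutamate and fatty acid metabolism, had the next largest difference and did not pass. It read 4.89 and 4.92 in the vector arrays and 5.16 and 5.38 in the Blnc1 arrays. The groups did not overlap, but the Blnc1 arrays differed from each other by 0.22, and the probe set lay below the array medians, where RMA compresses fold changes. The log2 fold change was 0.36 ± 0.099 (SE), with a 95% interval from 0.12 to 0.61, an unadjusted p of 0.0105 and an adjusted p of 0.140 (limma). That interval is for this probe set alone and takes no account of the number of probe sets tested.

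Sirt5, the mitochondrial enzyme that removes succinyl, malonyl and glutaryl groups, was read by 2 probe sets and neither passed. The brighter one read 6.76 and 6.58 in the vector arrays and 6.75 and 6.76 in the Blnc1 arrays, so the groups overlapped. Its log2 fold change was 0.085 ± 0.091 (SE, 95% interval -0.14 to 0.31, limma adjusted p = 0.671) and fell to -0.0039 without vector replicate 2, the lower of the vector arrays. The dimmer one read 6.33 and 6.20 in the vector arrays and 6.45 and 6.48 in the Blnc1 arrays, with no overlap and a log2 fold change of 0.20 ± 0.083 (SE, 95% interval -0.0044 to 0.40, limma adjusted p = 0.273).

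Neither measured nuclear member passed. Sirt1, the deacetylase of many transcription factors and coactivators, read 7.85 and 7.92 in the vector arrays and 7.95 and 7.96 in the Blnc1 arrays. The Blnc1 arrays were higher by a margin smaller than the gap between the vector arrays, and the log2 fold change was 0.071 ± 0.077 (SE, limma adjusted p = 0.674). The 95% interval, -0.12 to 0.26, does not reach a 1.5-fold change in either direction, the upper bound being 1.20-fold and the lower 0.922-fold. Sirt7, which is enriched in the nucleolus and known for its part in ribosomal RNA transcription, read 6.89 and 6.80 in the vector arrays and 7.01 and 6.95 in the Blnc1 arrays. Its log2 fold change was 0.13 ± 0.082 (SE, 95% interval -0.069 to 0.33, limma adjusted p = 0.448).

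Across the family, all 6 probe sets had positive log2 fold changes and in 5 of them both Blnc1 arrays lay above both vector arrays, an arrangement found for 26.4% of all probe sets. The family's median over 5 genes, each by its brightest probe set, was 0.13, against 0.0073 over all 10926 genes. Whether Sirt3 changed more than the other members was then asked within each array, which removes any shift shared by the whole array. The value of Sirt3 minus that of Sirt1 was 0.44 and 0.37 in vector arrays and 0.97 and 0.98 in Blnc1 arrays, a difference of 0.57 between the groups. For Sirt7 that difference was 0.51, for the brighter and dimmer Sirt5 probe sets 0.56 and 0.44, and for Sirt4 0.28. In each of the 5 comparisons both Blnc1 arrays lay above both vector arrays. Sirt3 was chosen for having the smallest p of the family, and its same values enter all 5, so this count is not separate support. The exact two-sided permutation p was 0.333 each time, also after adjustment over the 5, and this is the smallest value that 2 against 2 arrays can give, so a larger change of Sirt3 was not shown by a test.

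**Figure D2:**
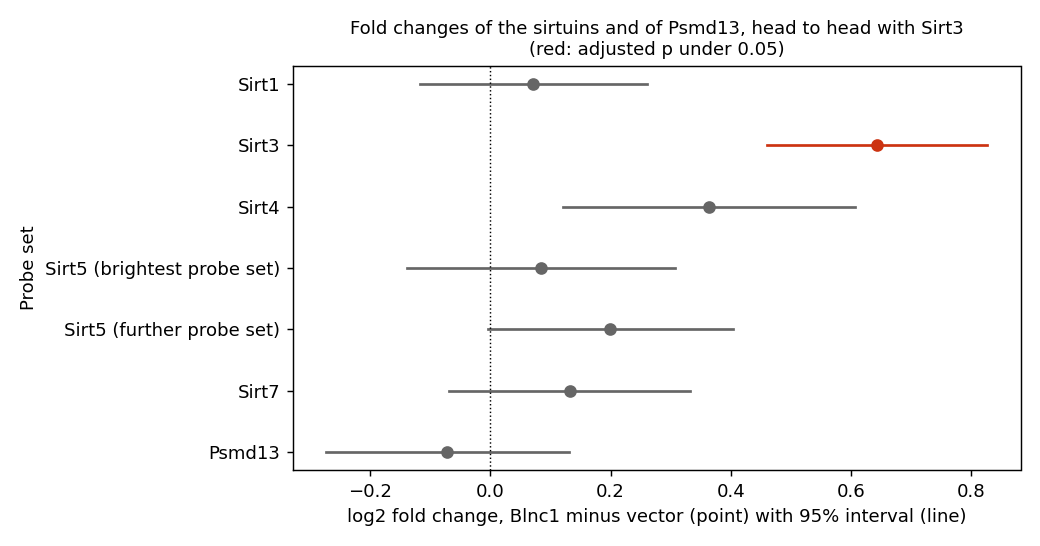
Log2 fold change (points, Blnc1 minus vector) with 95% intervals (lines) from limma for the sirtuin probe sets and for Psmd13, the gene that faces Sirt3 across a short shared promoter. Sirt3, in red, passed the adjusted threshold at 0.64; the intervals of Sirt1, Sirt7, both Sirt5 probe sets and Psmd13 include 0, and that of Sirt4 does not, although its adjusted p was 0.140.

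Sirt3 lies head to head with Psmd13, which encodes a subunit of the regulatory particle of the proteasome. Their outermost annotated starts (RefSeq, GRCm38.p6) are separated by 84 bases, and their promoter windows, each from 250 bases before the start to 50 after it, overlap by 184 bases. The stretch between the starts is shown with the first 10 bases of either transcript at its ends, because both genes are read outward from it, Sirt3 to the right and Psmd13, on the other strand, to the left. The stretch is chr7:140882300-140882403 on the minus strand, written 5′ to 3′, and capitals mark a match to the ETS and GABP motif CCGGAAGT, here on the opposite strand, which includes the start of Psmd13.
Sirt3 and Psmd13 shared promoter: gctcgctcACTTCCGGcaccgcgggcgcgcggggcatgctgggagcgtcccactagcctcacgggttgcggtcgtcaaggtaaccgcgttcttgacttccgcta

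The RNA of Psmd13 did not pass the test. It read 8.37 and 8.36 in the vector arrays and 8.35 and 8.23 in the Blnc1 arrays, a log2 fold change of -0.071 ± 0.082 (SE, 95% interval -0.27 to 0.13, limma adjusted p = 0.698). Within arrays, Sirt3 minus Psmd13 was -0.079 and -0.073 in the vector arrays and 0.57 and 0.71 in the Blnc1 arrays, a difference of 0.71 (exact two-sided permutation p = 0.333, again the smallest possible). The difference between these neighbours thus changed from vector to Blnc1 arrays by more than the gap between replicate arrays.

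This motif and others were searched on both strands of the RefSeq promoter windows of the 5 measured sirtuins, 300 bases each. The ETS and GABP motif CCGGAAGT was found in a window of Sirt3 and in none of Sirt1, Sirt4, Sirt5 or Sirt7, and 3.89% of all 32851 windows hold it. The E-box CACGTG was found for Sirt1 alone, against 7.15% of all windows. The oestrogen-related receptor motif TNAAGGTCA (1.28% of windows) and the cAMP response element TGACGTCA (1.79%) were found in no window of these 5 genes. A match is a description of letters and was not tied to binding in these cells. Bases outside these windows were not searched, so a missing match says nothing about sites further from the start.

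NAD+ itself, the co-substrate of the sirtuins, was not measured. Of 31 listed genes of its synthesis, transport and consumption, 17 were measured at the RNA level. Nampt, Cd38 and Bst1 were among those not analysed here. Of the 17, 1 fell and none rose, 10 had a positive and 7 a negative log2 fold change, and the median was 0.058. Over all genes 1.23% passed in either direction and 0.366% as lower in Blnc1 cells. The gene that fell was Nnt, the transhydrogenase of the inner mitochondrial membrane, which uses the proton gradient to make NADPH from NADH. Nnt read 4.87 and 4.85 in the vector arrays and 4.19 and 4.24 in the Blnc1 arrays, a change of -0.65 ± 0.076 on the log2 scale (SE; adjusted p = 0.0360 by limma). Its probe set was dim, below the array medians, and of the kind (x_at) that is prone to cross-hybridisation. The other Nnt probe set read 4.45 and 4.47 in the vector arrays and 3.92 and 4.38 in the Blnc1 arrays and did not pass (log2 fold change -0.31 ± 0.15 SE).

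Slc25a51, the carrier that brings NAD+ into mitochondria and so supplies SIRT3, SIRT4 and SIRT5, was read by 3 probe sets, all higher in Blnc1 arrays. The brightest read 11.02 and 11.00 in the vector arrays and 11.22 and 11.25 in the Blnc1 arrays, a log2 fold change of 0.22 ± 0.075 (SE) that did not pass (limma adjusted p = 0.198). A further probe set, singled out after its values were seen, read 8.03 and 8.04 in the vector arrays and 8.69 and 8.73 in the Blnc1 arrays, and rose by 0.67 ± 0.076 on the log2 scale (SE; adjusted p = 0.0348 by limma). The third stood at 0.20 ± 0.081 (SE) and did not pass, so the probe sets disagree on the size of the change but not on its direction. Nmnat3, the mitochondrial NAD+ synthase of the NMNAT family, stood at 0.33 ± 0.10 (SE) on a dim probe set, and Parp2, a nuclear consumer of NAD+, at 0.23 ± 0.083 (SE). Neither passed. The mean of the Slc25a51 probe sets passed in a fit by gene means (log2 fold change 0.37, limma adjusted p = 0.0438). In that fit 467 of 10926 genes passed, against 1.23% of genes in the main fit. This mean includes the probe set singled out above, so it is not separate support. Leaving out any 1 of the 4 arrays ended the calls of Nnt and of the further Slc25a51 probe set. Such fits leave 1 array in a group, and far fewer probe sets passed in them over the whole array. The log2 fold change of Nnt was -0.64 without vector replicate 1 and -0.65 without vector replicate 2.

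**Figure D3:**
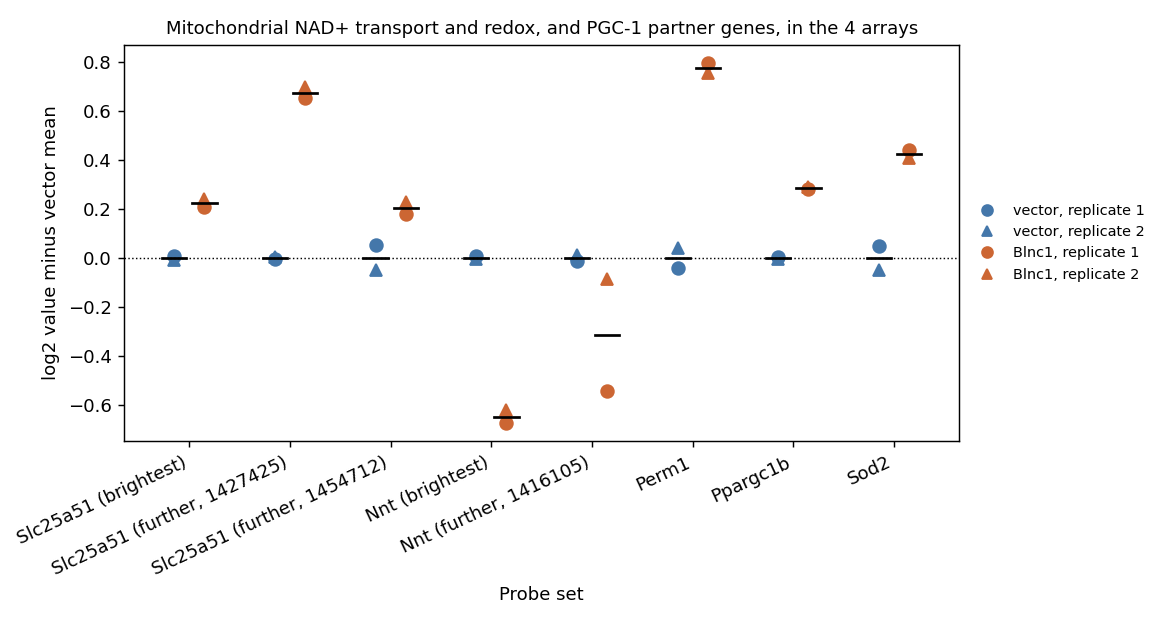
Value of each array minus the vector mean of the same probe set (vertical axis, log2 units) for Slc25a51 and Nnt, with all their probe sets, and for Perm1, Ppargc1b and Sod2; circles are replicate 1, triangles replicate 2, and bars the group means. The Blnc1 arrays of the further Slc25a51 probe set lie near 0.67 and those of Perm1 near 0.77, those of Nnt fall to -0.65 on its brightest probe set, and those of the other Nnt probe set spread widely.

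Mitochondrial proteins known as substrates or partners of SIRT3, SIRT4 or SIRT5 had mostly small positive differences. Of 23 measured genes none passed in limma, against 1.23% of all genes, and 8 had an unadjusted limma p under 0.05, against 20.7%. In the model without moderation none of the 23 passed, but neither did any other probe set, so that model adds nothing here. Positive log2 fold changes were found for 20, against 51.6% of all genes, and the median was 0.13. Both Blnc1 arrays lay above both vector arrays for 15 of them, against 28.3% of all genes. Sod2, the manganese superoxide dismutase that SIRT3 activates, read 11.20 and 11.10 in the vector arrays and 11.59 and 11.56 in the Blnc1 arrays (log2 fold change 0.42 ± 0.080 SE, limma adjusted p = 0.0780). Acss1, the mitochondrial acetyl-CoA synthetase that SIRT3 deacetylates, stood at 0.45 ± 0.077 (SE) from a dim vector mean of 3.66, and Acadvl, the very long chain acyl-CoA dehydrogenase, at 0.33 ± 0.080 (SE). The lowest member was Glud1, the glutamate dehydrogenase restrained by SIRT4, at -0.25 ± 0.087 (SE), named after its value was seen.

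Regulators and substrates of the nuclear and cytosolic sirtuins lay on both sides of 0. Of 30 measured genes 1 rose and none fell, against 0.86% and 0.366% of all genes. Log2 fold changes were positive for 15 and negative for 15, and the median was -0.020. An unadjusted limma p under 0.05 was found for 10, against 20.7% of all genes. Both Blnc1 arrays lay above both vector arrays for 9 and below them for 10, against 3095 and 2716 of all 10926 genes. The gene that rose was Ppara, a nuclear receptor for fatty acid oxidation genes and a partner of SIRT1, at 7.48 and 7.29 in the vector arrays and 8.14 and 8.09 in the Blnc1 arrays (log2 fold change 0.73 ± 0.095 SE, limma adjusted p = 0.0434). Its other probe sets rose as well, by 0.87 and 1.01 on the log2 scale (limma adjusted p = 0.0280 and 0.0289). After repeated quantile normalization the brightest probe set narrowly missed the threshold (0.71, limma adjusted p = 0.0524). Xrcc6, the Ku70 repair protein, stood at 0.46 ± 0.084, the deubiquitinase Usp22 at 0.29 ± 0.096 and the brown fat coregulator Prdm16 at 0.22 ± 0.081 (SE), and none of these passed. The further Prdm16 probe sets, both dim, stood at -0.0058 and -0.038, and the mean of all its probe sets at 0.059.

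Coactivators, receptors and other factors that control mitochondrial genes had the largest median of the related groups, 0.26 over 14 measured genes. PGC-1α acting through the oestrogen-related receptor ERRα is a known activator of Sirt3 transcription; Ppargc1a itself was not analysed here. Both Blnc1 arrays lay above both vector arrays for 10 of the 14 and below them for 3, against 3095 and 2716 of all 10926 genes. Of the 14, 1 gene rose, against 0.86% of all genes. That gene was Perm1, a regulator best known from muscle and induced by PGC-1 and ERR. Perm1 read 4.25 and 4.33 in the vector arrays and 5.09 and 5.04 in the Blnc1 arrays (log2 fold change 0.77 ± 0.079 SE, limma adjusted p = 0.0289). Its probe set was dim, below the array medians in all 4 arrays. Esrrg, an oestrogen-related receptor, read 5.97 and 5.99 against 6.41 and 6.36 and did not pass (0.40 ± 0.077 SE, limma adjusted p = 0.0782). Ppargc1b, which encodes PGC-1β, stood at 0.28 ± 0.075, and the corepressor Nrip1, which restrains oxidative genes, at -0.32 ± 0.077 (SE); neither passed. Esrra, which encodes ERRα and was named after its value was seen, stood at 0.27 ± 0.091 (SE, limma adjusted p = 0.200). Leaving out any 1 array ended the calls of Perm1 and of every Ppara probe set, in fits that leave 1 array in a group and pass far fewer probe sets.

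The enzymes that share or oppose the sirtuins' reaction had small median differences. None of the 7 measured zinc-dependent histone deacetylases, which need no NAD+, passed in limma, against 1.23% of all genes. Of the 7, 1 had an unadjusted limma p under 0.05, against 20.7% of all genes, and their median was 0.030. The furthest from 0 was Hdac5, a class II deacetylase, at 0.23 ± 0.081 (SE), followed by Hdac8 at 0.15 ± 0.10 and Hdac2 at -0.096 ± 0.087. None of the 16 measured lysine acetyltransferase genes passed in limma, 1 had an unadjusted limma p under 0.05, and the median was -0.049. Both Blnc1 arrays lay above both vector arrays for 0 of the 16 and below them for 5, against 3095 and 2716 of all 10926 genes. Without moderation 0 of all probe sets passed, so that model adds nothing on either list. Naa60 stood at -0.23 ± 0.088, the coactivator Crebbp at -0.16 ± 0.080 and the tubulin acetyltransferase Atat1, which is opposed by SIRT2, at -0.18 ± 0.098 (SE). The probe sets of Atat1 and Hdac8 were dim, with vector means of 3.87 and 4.34, below the array medians.

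**Figure D4:**
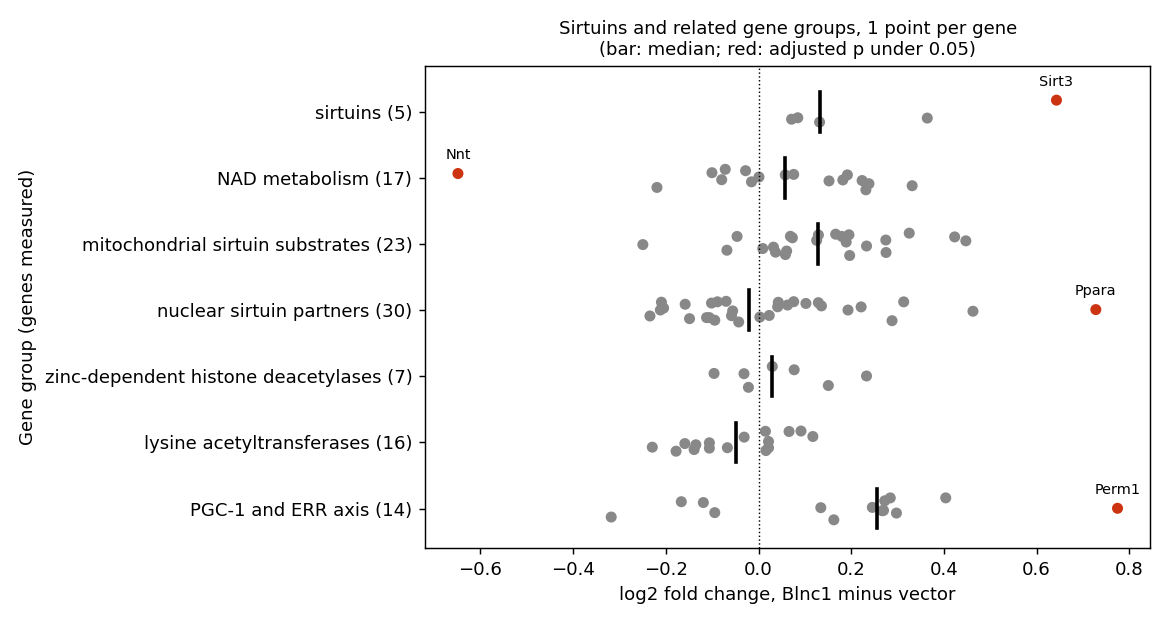
Log2 fold change (horizontal axis, Blnc1 minus vector) of each measured gene by its brightest probe set, in the sirtuin family and in 6 related groups; bars are medians and red points passed an adjusted p of 0.05. Medians run from -0.049 for the acetyltransferases to 0.26 for the PGC-1 and ERR group, and the labelled points are Sirt3, Nnt, Ppara and Perm1.

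The genes whose values over the 4 arrays were most like those of Sirt3, each centred on its own mean, were Trarg1, Tatdn3, Pon3, 2010315B03Rik and Tmem140, with root mean square distances of 0.011, 0.017, 0.022, 0.023 and 0.026 log2 units. Trarg1, which regulates glucose transporter trafficking in fat, read 5.86 in both vector arrays and 6.52 and 6.51 in the Blnc1 arrays. The log2 fold changes of these 5 genes lay between 0.60 and 0.65. With 4 arrays in 2 groups, likeness of this kind mostly reflects a fold change of similar size and small gaps between replicates.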

How the data were processed

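Total RNA of 4 samples was biotin-labelled and hybridised to single-colour Affymetrix mouse arrays, per the labels' protocols. For each probe set and array the authors deposited 1 log2 value; RMA (background correction, quantile normalization, median-polish summary), affy and limma are named in the submitters' processing notes, and versions, settings and build are not given in the sources used here. The log2 scale was read from the range of 2.70 to 13.3. After removal of 35 control probe sets, 23599 were tested with two-sided moderated linear models (lmFit and eBayes of limma 3.58.1, under R 4.3.3) and Benjamini-Hochberg adjustment at a threshold of 0.05; the fit was tested on simulated data. Of these, 16692 had 1 gene symbol, 372 had several and 6535 had none. A gene's level is that of its brightest probe set over all arrays. Few arrays limit the precision.

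Members and lists were chosen with earlier results of these data known. The text names every sirtuin probe set, list genes past the threshold with the next 3 by p, and the 5 profiles nearest to Sirt3; Psmd13 and the motifs were added after the files were seen, and the promoter sequence is from RefSeq. Alternatives were repeated quantile normalization, median centring, variance priors (trend, robust, none), dim or cross-hybridising probe sets left out, a threshold of 0.1, gene means, the replicate number as a block, and each array left out. The deviations of same-numbered arrays correlated at 0.089 over probe sets.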

Additional observations from a re-analysis of the deposited data

How the results depend on the processing

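The log2 fold change of Sirt3 was positive in all 14 alternatives (0.63 to 0.65), and it stayed past the threshold in 8. It did not pass without moderation (0.64, adjusted p = 0.228), with the replicate number as a block (0.64, adjusted p = 0.0819) or without any 1 array (0.64 to 0.65), and the count of sirtuin probe sets past the threshold was then 0. Numbers shared by only 2 arrays per group do not establish a pairing. Sirt1, Sirt4 and Sirt7 stayed positive and under no alternative passed; Sirt4 could not be fitted where dim probe sets were left out. Sirt5 lay between -0.0039 (without vector replicate 2) and 0.17 with 1 array left out. Differences of Sirt3 from the other sirtuins kept their sign throughout.

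All probe sets past the threshold numbered 219, and 2174 with an intensity trend, 0 without moderation, 1021 without dim probe sets, 958 at an adjusted p of 0.1, 30 with the replicate block, 467 genes by gene means, and 3 to 38 with 1 array left out. In the same order of settings, except for the settings with 1 array left out, the mitochondrial substrates gave 10 genes with a trend, 2 without dim probe sets, 2 at 0.1 and 1 by gene means, against 0. The PGC-1 and ERR group gave 6, 0, 4, 2, 0 and 3, against 1. The nuclear partners gave 3, 0, 2, 2, 0 and 2, against 1, and 0 after repeated quantile normalization. NAD metabolism gave 3 with a trend, 0 without moderation, 0 without dim probe sets, 0 without x_at and s_at probe sets, 0 with the replicate block and 2 by gene means, against 1. With 1 array left out these last 3 groups gave 0 genes. The zinc-dependent histone deacetylases and the acetyltransferases gave 0 throughout. Slc25a51 passed on its brightest probe set with an intensity trend (0.22, adjusted p = 0.00320). Some settings leave fewer arrays, probe sets or degrees of freedom; otherwise the cause of these differences was not tested.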
